A study of Mus musculus with 4 samples.

Results

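Translation factors and RNA helicases were followed in prefrontal cortex from female mice overexpressing human synaptic acetylcholinesterase (AChE), which hydrolyses the transmitter acetylcholine, and from female FVB/N controls. Members were the probe sets with a single gene symbol that starts with Eif, Eef, Ddx or Dhx. They numbered 110 of the 12422 probe sets on the array and stood for 78 genes, with 56 probe sets in initiation (Eif), 9 in elongation (Eef) and 45 for helicases (Ddx and Dhx). The Y-linked Eif2s3y was left out. Total RNA was pooled from 4 mice for each array, and there were 2 control pools and 2 transgenic pools. The sources used here do not give age, the transgene's promoter or the background strain of the transgenic mice. Nor do the labels say whether pools of a group came from separate mice, so the spread behind each p-value is that between these pools and may be technical.

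Protein synthesis starts when a set of initiation factors brings the small ribosomal subunit and the initiator tRNA to the cap of an mRNA. The eIF4 factors bind the cap and unwind the leader, eIF3 bridges mRNA and ribosome, and eIF2 carries the initiator tRNA with GTP and is recharged by eIF2B. Elongation factors then deliver each aminoacyl-tRNA and move the ribosome along. DEAD-box (Ddx) and DEAH-box (Dhx) proteins use ATP to remodel RNA in splicing, ribosome assembly, translation and decay, and eIF4A belongs to the DEAD-box family too. In neurons these steps matter for protein synthesis near synapses, and the elongation factor gene Eef1a2 is known as the form that mature neurons and muscle use.

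The array's 1 probe set named for Ache, the mouse gene, read 599.5 and 621.9 in the pools labelled control and 365.3 and 355.6 in those labelled transgenic. It fell where the labels give overexpression of the human form (-0.76 ± 0.14 SE in log2, adjusted p = 0.00768). Whether this mouse probe set reads the human transcript is not known here, so it does not check the labels. Control and transgenic are used throughout as the labels give them, and every direction rests on those labels. Array medians lay between 86.6 and 88.2, so the arrays were on a common scale. All pools are labelled female, and no array gave the probe set of Eif2s3y more than 13.9. Xist, which coats the inactive X chromosome, read only 29.3 and 21.1 in the control pools, against 178.5 and 228 in the transgenic pools. That is low for the labelled sex of the control pools, and both control pools carry it, so no comparison without such a pool exists. It bears on the X-linked members Ddx3x, Eif2s3x and Eif1ax, and whether it has a part in their values was not tested.

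A probe set was tested when its mean log2 intensity over the 4 arrays exceeded the 40th percentile (an intensity of 49.4), and values under the 25th percentile (19.675) were raised to that floor. Of the 110 members, 83 were tested (67 genes) and 27 were too dim. In limma, with Benjamini-Hochberg adjustment over all tested probe sets and a threshold of 0.05, 5 members rose and 2 fell. These 7 were 8.43% of the tested members, against 10% of all 7453 tested probe sets, so the share called was near the background. The rises were 3 helicase genes, Dhx36, Ddx3x and Ddx6, and the initiation genes Eif5b and Eif3e. The falls were the cap-complex scaffold gene Eif4g3 and the elongation factor gene Eef1a2.

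**Figure D1:**
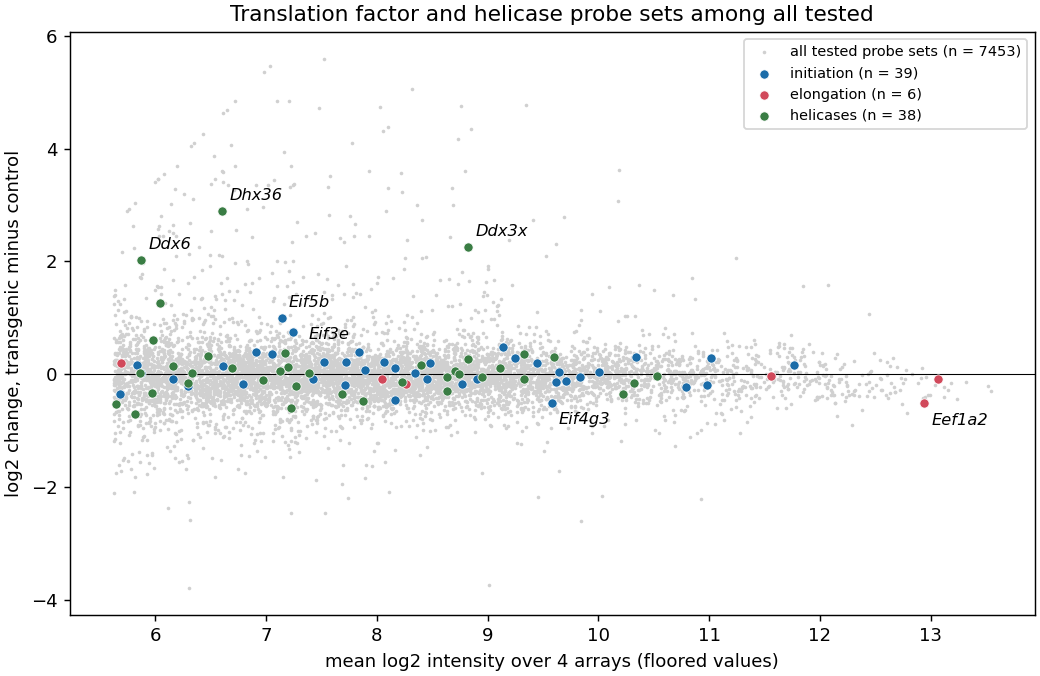
Log2 change (transgenic minus control, y axis) against the mean log2 intensity over the 4 arrays (x axis) for all 7453 tested probe sets in grey, with 39 initiation, 6 elongation and 38 helicase probe sets coloured. Of the 83 member probe sets 71 lie within 0.5 of 0, and 3 helicase probe sets, 1 each of Dhx36, Ddx3x and Ddx6, lie 2.02 or more above it. Over all 7453 tested probe sets 133 changed by more than 2 in either direction.

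The promoters of the genes that changed are shown as the sequence at an annotated start of each gene. Which start was used in this tissue is not known here. Of the 78 member genes 69 had an entry in the RefSeq promoter table of mouse build GRCm38.p6, and of the 7 genes with a called probe set 5 had. Each line gives 150 bases, 5′ to 3′ on the gene's strand, from 120 bases before the annotated start through the first 30 bases of the transcript, with the lowest-numbered start where the table has several. Capitals mark matches, on either strand, to the TATA box (letters TATANAA), the CRE (letters TGACGTCA), the E-box (letters CACGTG), the GC box (letters GGGCGG), the ETS core (letters CCGGAA) or the box named for its letters CCAAT.
Ddx3x chrX:13280902-13281051 (+ strand): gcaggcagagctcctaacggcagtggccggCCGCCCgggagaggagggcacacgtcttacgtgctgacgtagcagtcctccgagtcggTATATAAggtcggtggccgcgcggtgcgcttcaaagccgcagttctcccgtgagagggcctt
Dhx36 chr3:62506959-62507108 (- strand): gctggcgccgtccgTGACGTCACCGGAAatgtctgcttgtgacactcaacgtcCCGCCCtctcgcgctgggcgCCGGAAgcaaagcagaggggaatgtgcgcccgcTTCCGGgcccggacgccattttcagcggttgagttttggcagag
Eef1a2 chr2:181156986-181157135 (- strand): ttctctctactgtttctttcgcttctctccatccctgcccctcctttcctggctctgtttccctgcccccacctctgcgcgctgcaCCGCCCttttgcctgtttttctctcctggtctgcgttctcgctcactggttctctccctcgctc
Eif4g3 chr4:137993335-137993484 (+ strand): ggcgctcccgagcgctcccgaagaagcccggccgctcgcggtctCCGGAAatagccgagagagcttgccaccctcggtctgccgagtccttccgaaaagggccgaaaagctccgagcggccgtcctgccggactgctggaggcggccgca
Eif5b chr1:37997890-37998039 (+ strand): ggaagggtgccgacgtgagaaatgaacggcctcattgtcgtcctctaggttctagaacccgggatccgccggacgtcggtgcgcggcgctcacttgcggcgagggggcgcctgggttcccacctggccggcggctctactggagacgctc
Among these genes Ddx3x had a TATA box and a GC box, Dhx36 a CRE, a GC box and 3 ETS cores, Eef1a2 a GC box and Eif4g3 an ETS core, while Eif5b had no match in this window. No 2 matches overlapped. The called genes thus shared no single one of the 6 motifs. Over all 69 member genes a GC box stood in 63.8% of windows, against 29.1% of the 32851 windows of all starts in the table, and an ETS core in 36.2% against 10.4%. An E-box stood in 13% against 4.47%, a CRE in 5.8% against 1.44%, a TATA box in 7.25% against 5.76% and a CCAAT box in 24.6% against 24%. Base composition differed as well, with a median G and C content of 65.3% in member windows and 54.7% in all. The table holds several starts for some genes. Members were counted at 1 start for each gene and the table at every start, so the compared shares are of unlike units. Where a gene on the - strand has several starts, the lowest-numbered one lies furthest downstream. A match to these letters is a description of the sequence only.

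Among the 56 initiation probe sets 39 (34 genes) were tested, and of these 2 rose, 1 fell and 36 did not pass (7.69% called), with a median log2 change of 0.05 against -0.03 over all tested probe sets. A log2 change under 0.5 in size was found in 92.3% of them, against 81% of all tested probe sets. Groups that did not overlap were seen for 20 of the 39 (51.3%), against 53.7% of all tested probe sets, so such gaps between 2 and 2 arrays are common here.

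Eif5b encodes the GTPase that joins the ribosomal subunits at the end of initiation. Its probe set 98142_at read 94.8 and 105.1 in control tissue and 169 and 236.1 in transgenic tissue. Both transgenic values lay above both control values, a 2.0-fold rise (1.0 ± 0.23 SE in log2, adjusted p = 0.0221). A second Eif5b probe set, 98141_at, was too dim to be tested, with 4.2 and 4.5 in control tissue and 48.2 and 89.7 in transgenic tissue. It was thus under the floor in both control pools and over it in both transgenic pools. The call at 98142_at was lost without transgenic replicate 2 (log2 change 0.76, adjusted p = 0.156) and without the intensity trend (adjusted p = 0.0576).

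The eIF3 complex, which holds mRNA and ribosome together, gave 1 rise and 0 falls among 10 tested probe sets of 10 genes. That is 10% called, as over all tested probe sets, and the median log2 change was 0.15. At an unadjusted p under 0.05 limma gave 3 of the 10 (30%), where 24.3% of all tested probe sets had such a p, and nothing is read from this count. The core subunit gene Eif3e read 118.6 and 114.7 in control tissue and 179.5 and 214.6 in transgenic tissue at 160554_at. The groups were apart, and the rise was 1.68-fold (0.75 ± 0.20 SE in log2, adjusted p = 0.0431). Its other probe set, 101695_at, was untested at 22 and 35.3 in control tissue and 18.5 and 41.9 in transgenic tissue, which overlap. The Eif3e call was lost without any 1 of the 4 arrays: adjusted p was 0.0710 and 0.103 without control replicate 1 or 2, and 0.0791 and 0.198 without transgenic replicate 1 or 2. It was 0.0664 without the intensity trend. Next in order, Eif3j1, a loosely bound subunit, read 447.2 and 508.4 against 585.5 and 765.1 (0.49 ± 0.17 SE in log2, adjusted p = 0.0994). Its groups did not overlap, but it did not pass. The lowest member of the complex was Eif3c with a log2 change of -0.19 ± 0.11 (adjusted p = 0.341).

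Among the genes with symbols starting with Eif4, repressors of Eif4e included, 0 of 10 tested probe sets rose and 1 fell. That is 10% called, as over all tested probe sets. The fall was in Eif4g3, a scaffold that links the cap-binding protein to the helicase eIF4A. It read 865 and 958 in control tissue and 658.4 and 625.8 in transgenic tissue at 96850_at. All transgenic values were below the control values, a 1.42-fold fall (-0.50 ± 0.13 SE in log2, adjusted p = 0.0405). That call was lost without control replicate 2 (adjusted p = 0.184), transgenic replicate 1 (0.0994) or transgenic replicate 2 (0.154), and without the intensity trend (0.140). The related scaffold gene Eif4g2, which lacks the site for the cap-binding protein, read 194 and 199.2 against 225.8 and 229.7 (0.21 ± 0.17 SE in log2, adjusted p = 0.496). The helicase genes of the complex had log2 changes of 0.22 (Eif4a1, 95% interval -0.14 to 0.58) and 0.17 (Eif4a2, -0.08 to 0.42), and neither passed. The cap-binding protein gene Eif4e was too dim at both of its probe sets, with 53.9 and 37.1 against 41.5 and 46.1 at 99097_at. Its repressors did not pass either: Eif4ebp1 had 0.02 ± 0.31 SE, and Eif4ebp2 had -0.13 ± 0.16 at 101072_at and 0.15 ± 0.25 at 94353_at.

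Of 12 tested probe sets for the factors that load and check the initiator tRNA (eIF1, eIF2, eIF2B and eIF5), 0 passed in limma after adjustment. At an unadjusted p under 0.05 limma gave 1 (8.33%, against 24.3% of all tested probe sets). That was Eif2s3x, the X-linked gamma subunit of eIF2, a gene known to escape X inactivation. It read 1862.4 and 1893 in control tissue and 2402.7 and 2199.9 in transgenic tissue (0.29 ± 0.11 SE in log2, adjusted p = 0.139). The groups were apart by a small step that did not pass. The X-linked Eif1ax gave -0.09 ± 0.16 at 160111_at and 0.22 ± 0.20 at 93358_at, and the related Eif1a, which acts in scanning, -0.17 ± 0.23 at 103708_at and 0.03 ± 0.19 at 93058_at. Eif2s2, the beta subunit of eIF2, had 2 dim probe sets that were not tested and are named after their values were seen. At 160365_at it read 25.5 and 48.7 in control tissue and 64.7 and 74 in transgenic tissue. At 97083_at it read 5.5 and 2.9 against 38.7 and 23.5. Both probe sets were higher in both transgenic pools. Of all tested probe sets 53.7% had groups that did not overlap, a share that leaves out untested ones such as these. Without the filter the log2 changes of the 2 Eif2s2 probe sets in limma were 0.97 (adjusted p = 0.472) and 0.62 (adjusted p = 0.538). Leaving out control replicate 2, its higher control value, let 160365_at enter the test through its transgenic values. It then crossed the threshold against a lone control pool, and nothing is read from that fit.

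Kinases that phosphorylate eIF2 to slow initiation under stress gave 0 calls in 3 tested probe sets. At an unadjusted p under 0.05 limma gave 1 (33.3%, against 24.3% of all tested probe sets). Eif2ak1, the kinase that senses haem, read 329.2 and 342.6 in control tissue and 252.4 and 236.8 in transgenic tissue (-0.46 ± 0.16 SE in log2, adjusted p = 0.103). Its transgenic values lay below the control values without passing. Markers of blood rose in the same pools: Hba-a1, a haemoglobin chain, read 2678.2 and 2325 against 8257.2 and 6740.9, and Alas2, of haem synthesis in red cells, 101.2 and 71.4 against 215.6 and 204.2. Both of the blood markers on the array thus rose, and their part in these results was not tested. In bulk tissue, fewer cells of a type and less RNA per cell cannot be told apart. Eif2ak3, the kinase of the endoplasmic reticulum, had 0.17 ± 0.35 SE, and Eif2ak2, which responds to double-stranded RNA, was too dim to test at 32.8 and 28.3 against 26.2 and 31.7. Eif5a, whose protein carries the amino acid hypusine, was also too dim, at 36.9 and 16.7 against 30.9 and 25.8.

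**Figure D2:**
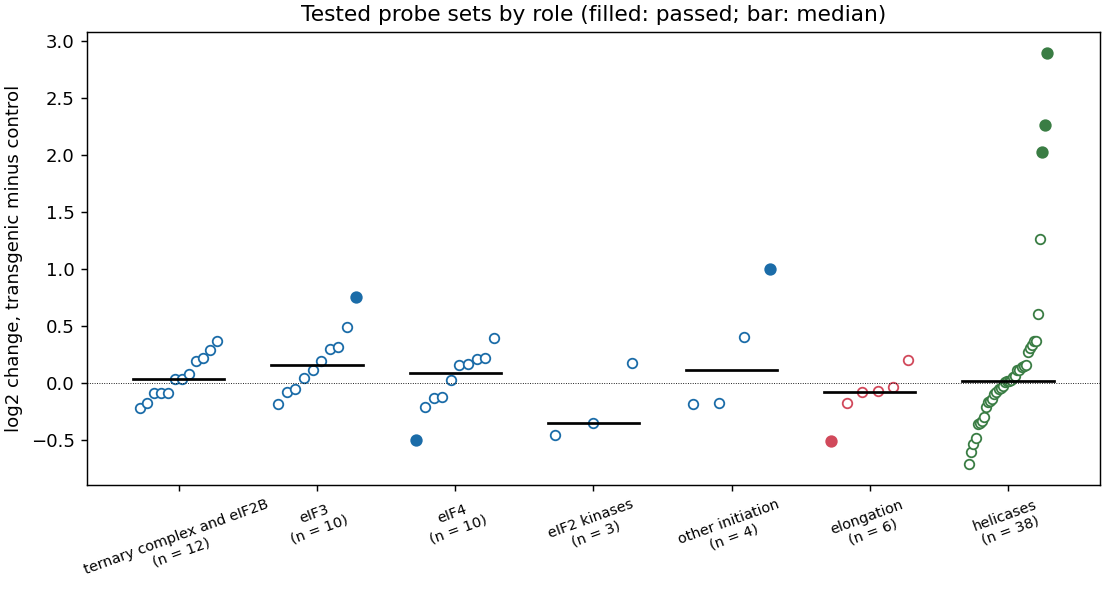
Log2 change (transgenic minus control, y axis) of every tested member probe set, sorted within its role on the x axis, where filled points passed, open points did not and bars are medians. The medians lie between -0.36 (3 eIF2 kinase probe sets) and 0.15 (eIF3), and the 3 points above 2 are all helicases.

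Elongation factors gave 0 rises and 1 fall in 6 tested probe sets of 6 genes (16.7% called, against 10% of all tested probe sets). At an unadjusted p under 0.05 limma gave that fall alone (16.7%, against 24.3% of all tested probe sets). Eef1a2 brings aminoacyl-tRNA to the ribosome. It read 9768.9 and 8984.3 in control tissue and 7531.9 and 5728.8 in transgenic tissue at 94429_at. Both transgenic pools were lower, transgenic pool 2 most, and the fall was 1.43-fold (-0.51 ± 0.13 SE in log2, adjusted p = 0.0375). The fall rested on that pool in part, since without transgenic replicate 2 the log2 change was -0.31 (adjusted p = 0.144). It was also lost without control replicate 1 (0.0623), with quantile normalization (0.106), with a floor at the 40th percentile (0.0531) and without the intensity trend (0.201).

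Its widely expressed sister gene Eef1a1 read 8473.5 and 9163.9 against 8698.9 and 8039.9, groups that overlap. The log2 change was -0.08, with a 95% interval of -0.29 to 0.14 (adjusted p = 0.695). Whether the changes of Eef1a1 and Eef1a2 differ was not tested. Eef2, which moves the ribosome along, read 3067.6 and 3046.1 against 3205.5 and 2788.3, with a log2 change of -0.03 (interval -0.28 to 0.22). Eef2k, the kinase that inhibits it, was too dim to test at 13.4 and 52.5 against 36.3 and 16.5. Eef1d, of the exchange factor that recharges eEF1A, had -0.08 ± 0.17 SE. Eef1akmt1, a methyltransferase that acts on eEF1A, had -0.17 ± 0.16 SE, and Eef1b2 had 0.20 ± 0.54 SE with pools that differed within each group.

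The 3 largest fitted rises among the tested members were in helicases. Of 38 tested probe sets of 27 genes 3 rose and 0 fell, which is 7.89% called, and the background is 5.46% for rises and 4.56% for falls. At an unadjusted p under 0.05 limma gave 8 (21.1%), against 24.3% of all tested probe sets, so both shares are near the background. Of the 3 that rose, Dhx36 and Ddx6 93964_s_at passed the filter only through their transgenic values. The median log2 change was 0.02. In size, 3 of the 38 probe sets exceeded 2, as did 133 of all 7453 tested probe sets.

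Dhx36, which unwinds RNA and DNA folded into G-quadruplexes, rose most. It read 37 and 34.4 in control tissue and 247.8 and 284.1 in transgenic tissue at 95944_at, its only probe set. Its transgenic pools stood far above the control pools, which lay under the filter level, so the probe set was tested only because of its transgenic values. The rise was 7.44-fold (2.89 ± 0.24 SE in log2, adjusted p = 3.73e-05).

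Ddx3x, an X-linked helicase that helps translate mRNAs with structured leaders and is known to escape X inactivation, rose at 101542_f_at. It read 214.3 and 200.3 in control tissue and 867.4 and 1140 in transgenic tissue. The groups were far apart, a 4.80-fold rise (2.26 ± 0.17 SE in log2, adjusted p = 1.94e-05). Another Ddx3x probe set, 93309_at, read 315.3 and 312.5 against 263.2 and 307.6, with a log2 change of -0.14 (95% interval -0.50 to 0.22, adjusted p = 0.652). The remaining one, 161273_f_at, was too dim to test at 29.2 and 38 against 28.9 and 20.5. The rise was therefore seen at 1 of 3 probe sets. In the naming of these arrays the suffix _f marks probes that may be shared with related sequences, and what the probes of 101542_f_at bind was not tested.

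Ddx6 holds mRNAs silent and starts their decay in cytoplasmic granules. Groups did not overlap for 53.7% of all tested probe sets, so gaps alone are a description. Ddx6 was higher in both transgenic pools at all 3 of its probe sets. At 93964_s_at it read 36.4 and 23.2 in control tissue and 97.2 and 143.3 in transgenic tissue, a 4.06-fold rise (2.02 ± 0.36 SE in log2, adjusted p = 0.00701). Its control values lay under the filter level, so here too the transgenic values carried the probe set into the test. At 93965_r_at, listed under the same accession, it read 51.3 and 51.3 against 80.3 and 75.9 (0.61 ± 0.29 SE in log2, adjusted p = 0.243). At 96731_at, from another accession, it read 538.2 and 596.9 against 765.8 and 696.2 (0.37 ± 0.14 SE in log2, adjusted p = 0.136). Neither of these passed. With a floor at the 40th percentile the log2 change at 93964_s_at was 1.21. Without transgenic replicate 1 or 2 this probe set fell under the filter and was not tested.

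The calls of Dhx36, Ddx3x and Ddx6 were lost without the filter on dim probe sets (adjusted p = 0.0700, 0.0932 and 0.218), as were those of the other 4 called members. In that fit the shared variance estimate was worth only 0.748 degrees of freedom, against 7.51 with the filter. There, 2155 probe sets had a log2 change of 0. Whether either has a part in the lost calls was not tested.

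**Figure D3:**
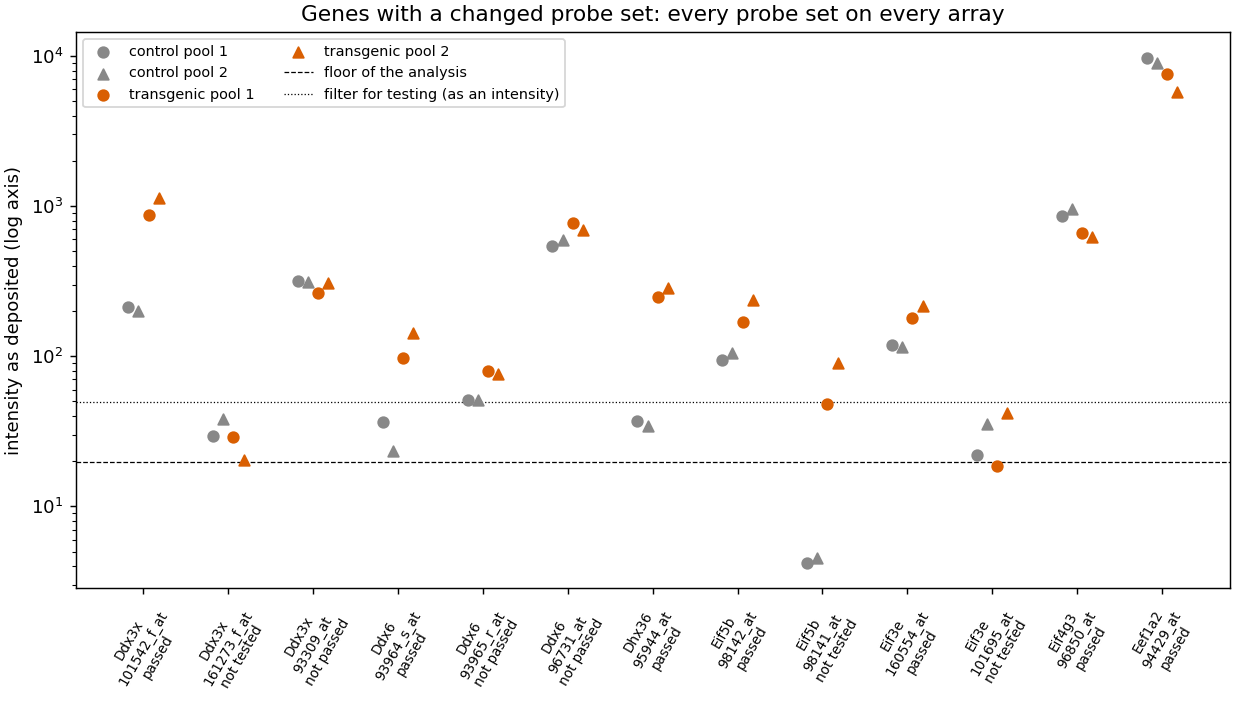
Deposited intensity (y axis, log scale) on each array for every probe set of the 7 genes with a called probe set, grey for control pools and orange for transgenic pools, with the floor (19.675) and the filter level (49.4) as lines. At Ddx3x 101542_f_at and Dhx36 the pools of a group lie close together and the groups far apart, whereas Ddx3x 93309_at shows no such step.

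Other helicases fell short of the threshold. Ddx27, which acts in ribosome assembly, read 60.7 and 29.9 in control tissue and 108.6 and 95.7 in transgenic tissue at 161131_r_at (1.26 ± 0.37 SE in log2, adjusted p = 0.0652). Its control pools lay far apart. Without control replicate 1 the log2 change was 1.77 and passed (adjusted p = 0.000813), in a fit whose shared variance estimate was worth 233 degrees of freedom. Without control replicate 2 the log2 change was 0.75 (adjusted p = 0.235), and without transgenic replicate 1 or 2 adjusted p was 0.242 or 0.204. Its second probe set, 95540_r_at, read 92.3 and 69.4 against 87.9 and 74.6, which overlap (log2 change 0.02 ± 0.28 SE). Ddx46, a splicing helicase, read 188.8 and 179.6 against 108 and 136.1 (-0.60 ± 0.21 SE in log2, adjusted p = 0.102). Ddx19b, of mRNA export, read 302.9 and 253.1 against 211.7 and 186.3 (-0.48 ± 0.18 SE in log2, adjusted p = 0.132). For both the transgenic values lay under the control values without passing. Dhx9, a helicase of many nuclear steps, had -0.36 ± 0.17 SE (adjusted p = 0.245). Ddx5, a cofactor of splicing and transcription, read 1556.9 and 1440.2 against 1334.5 and 1611.1, with a 95% interval of -0.32 to 0.26 around a log2 change of -0.03. Dhx15, which releases spent spliceosomes, had 0.02 ± 0.20 SE.

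Probe sets of the same gene were compared by testing, within each array, the difference between their log2 values. This asks whether 2 probe sets of a gene changed by different amounts. Among the members 25 genes had more than 1 probe set and 15 had at least 2 tested ones, which gave 17 pairs. Of these 17 pairs 4 differed in limma, adjusted over all 1213 such pairs on the array, of which 10.4% differed. The 4 pairs came from 3 genes, all of them helicases: Ddx3x, Ddx6 (2 pairs that share a probe set) and Ddx27. In 3 of these 4 pairs, those of Ddx6 and Ddx27, 1 probe set (93964_s_at or 161131_r_at) had passed the filter only through its high transgenic values, so their call is given as a description. Both probe sets of the Ddx3x pair had group means over the filter level. Each of the 4 pairs holds a probe set with an added letter in its suffix (_f, _r or _s). Some pairs that did not differ hold one too, and what such probes bind was not tested.

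For Ddx3x the change at 101542_f_at exceeded that at 93309_at by 2.40 on the log2 scale (95% interval 1.88 to 2.93, adjusted p = 0.000277). For Ddx6 the change at 93964_s_at exceeded that at 93965_r_at by 1.42 (0.67 to 2.16, adjusted p = 0.0293) and that at 96731_at by 1.66 (0.76 to 2.55, adjusted p = 0.0322). The last 2 probe sets of Ddx6 differed by 0.24 (interval -0.39 to 0.87), which did not pass. For Ddx27 the change at 161131_r_at exceeded that at 95540_r_at by 1.24 (0.61 to 1.87, adjusted p = 0.0243). Without control replicate 2 the adjusted p was 0.0885 and 0.101 for the 2 Ddx6 pairs and 0.0982 for Ddx27. Without transgenic replicate 1 or 2 it was 0.130 or 0.133 for Ddx27, and the Ddx6 pairs had no test. With a floor at the 40th percentile the Ddx6 differences were 0.61 and 0.85 and did not pass (0.205 and 0.119).

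For the remaining 12 genes no pair passed. Ddx1 gave 0.11 at both of its probe sets, with an interval of -0.62 to 0.62 for the difference, and Ddx47 gave 0.06 and 0.00 (interval -0.47 to 0.57). The widest gaps among these were Ddx18, at -0.53 and 0.14 (adjusted p = 0.225), and Eif4b, an eIF4A cofactor, at -0.13 and 0.39 (adjusted p = 0.298).

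**Figure D4:**
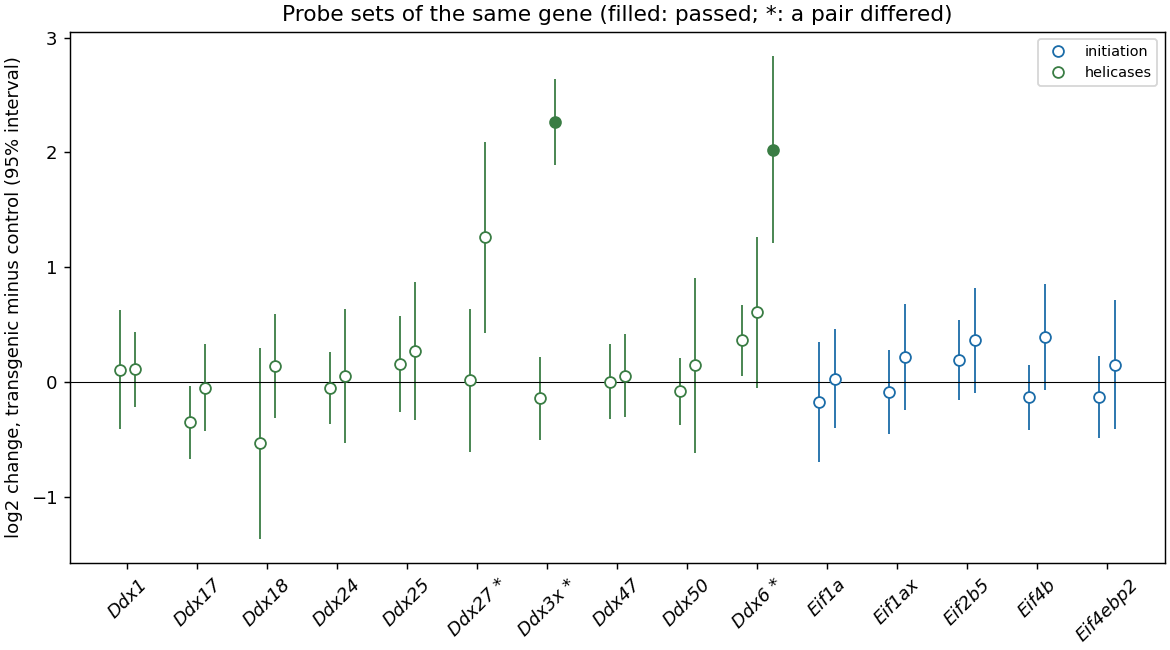
Log2 change (transgenic minus control, y axis) with its 95% interval for each tested probe set of the 15 genes that have at least 2, in blue for initiation and green for helicases. A star marks the 3 genes with a pair that differed, Ddx27, Ddx3x and Ddx6, and filled points are those that passed on their own.

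The 27 untested members read between 0.3 and 89.7, and 8 of them lay at or under the floor on all 4 arrays, so for these the arrays give no comparison. For 11 genes no probe set was tested. Of the tested members, 7 had a group mean under the filter level, among them Dhx36, Ddx6 93964_s_at and Ddx27 161131_r_at.

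Genes that act beside these factors were read from lists. Over all tested probe sets 5.46% rose and 4.56% fell, and the calls from these lists are given as a description. Of 44 tested probe sets (37 genes) for translation regulators and release factors 3 rose and 2 fell, with a median log2 change of -0.01. Pabpc4, a binder of the poly(A) tail, rose by 1.19 (adjusted p = 0.00223), Impact, an inhibitor of an eIF2 kinase, by 1.21 (0.0464) and Pdcd4, an inhibitor of eIF4A, by 0.61 (0.0154) on the log2 scale. A second Pabpc4 probe set, 92774_at, was too dim to test at 20.8 and 16.7 in control tissue against 9.2 and 16.5. Impact read 270.8 and 268.4 in control tissue against 399.1 and 968.8, so its transgenic pools lay far apart. Rps6kb2, a kinase of ribosomal protein S6, fell by 1.76 (adjusted p = 0.0103) and the arginine methyltransferase gene Prmt1 fell by 1.60 (0.0115). Rps6kb2 read 36 and 30.3 in transgenic tissue, under the filter level, so its control values of 141.8 and 88.7 carried it into the test. Mtor, a kinase that controls cap-dependent translation, had -0.04 and -0.21 at its 2 probe sets, and neither passed. Of 29 tested probe sets for aminoacyl-tRNA synthetases 0 rose and 1 fell, the Wars probe set 98606_s_at, which fell by 0.91 (adjusted p = 0.00778). The other tested Wars probe sets, 98605_at and 161337_f_at, had -0.16 and -0.04 (adjusted p = 0.529 and 0.947). Of 5 tested probe sets for RNA helicases of other names 0 rose and 1 fell (Aqr, a splicing helicase, fell by 1.09, adjusted p = 0.00465).

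Markers of the tissue were present. The summed signal of 10 neuronal probe sets (7 genes) was 26864.2 and 26249.1 in control tissue and 21828.3 and 23678.6 in transgenic tissue. Of 9 tested 0 rose and 1 fell. Probe sets for cortical projection neurons gave 0 rises and 1 fall of 4, interneurons 0 and 1 of 6, oligodendrocytes 0 and 1 of 10, microglia 0 and 1 of 8, and choroid plexus and meninges 0 and 1 of 8. Astrocytes gave 2 rises, both in Aqp4, and 1 fall of 7, and endothelial cells 2 rises, both in Flt1, of 5. Striatum gave 0 calls of 3, and olfactory bulb and neuroblasts 2 rises (Sox11 and Eomes) of 5. Both Aqp4 probe sets, Flt1 98453_at and Eomes 103532_at read under the filter level in both control pools. They were thus tested only through their transgenic values. Camk2a, the fall among cortical projection neurons, had a transgenic mean under that level and was tested through its control values. The blood sum rose from 2779.4 and 2396.4 in control tissue to 8472.8 and 6945.1 in transgenic tissue. Of all tested probe sets 5.46% rose and 4.56% fell, so these small counts are a description only. The part of these cell types in the changes of the members was not tested.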

How the data were processed

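The authors deposited 1 linear intensity for each probe set on each array. That unit was inferred from the values, and the sources used here name no software for it. Medians differed by 1.85% and upper quartiles by 2.29%, so the deposited intensities were used without further scaling. Control probe sets (66 of 12488) were left out. Genes were named through the platform annotation, and all 110 member symbols matched the RefSeq gene table of GRCm38.p6. Values were floored, log2-transformed and tested in limma 3.58.1 under R 4.3.3 (lmFit, eBayes with an intensity trend, two-sided, 2 residual degrees of freedom plus 7.51 from the shared estimate). SEs and 95% intervals come from that fit, with a median SE of 0.188 for log2 changes. Precision is limited by the number of arrays. Folds are back-transformed log2 changes. The test was checked on simulated data.

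Named probe sets were those that passed, other probe sets of their genes, 22 genes fixed by name, the 3 of smallest p in each role that did not pass, and genes with a differing pair. Eif4g1, Eif2s1 and Eif1, which the fixed names include, were not analysed here. Ddx1, Ddx18, Ddx25, Ddx47, Eef1b2, Eif1ax, Eif2ak4, Eif2s2, Eif3c, Eif4b and the genes named from lists fall outside that rule and were chosen after their values were seen. Members, lists and names were chosen with earlier results of these data known. Alternatives changed the floor, filter, normalization, variance prior, replicate block and each array.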

Additional observations from a re-analysis of the deposited data

How the results depend on the processing

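Under 13 alternatives, the 33 named and tested probe sets gave 417 values, of which 392 stayed on their side of the threshold, 23 lost the call and 2 gained it, both at Ddx27 161131_r_at. Outside the named probe sets, 2 members crossed the threshold against a lone control pool. These were Ddx25 92678_at without control replicate 1, whose groups overlap on all 4 arrays, and Eif2s2 160365_at without control replicate 2. The shared variance estimate was worth 233 and 55.2 degrees of freedom in these fits, and nothing is read from them. No called value changed sign, and 18 values that had not passed did. Over all probe sets 747 passed, 395 without the intensity trend, 48 without the filter and 389 to 745 with an array left out. Of the members 5 rose: 0 without the filter (14 at an unadjusted p under 0.05 in limma), 2 with a filter at the 60th percentile, 3 without the trend and 2 to 6 with an array left out. Of the members 2 fell: 1 with a floor at the 40th percentile, 1 with quantile normalization, 0 without the filter (8 at an unadjusted p under 0.05 in limma), 0 without the trend (6) and 0 to 1 with an array left out. The 4 pairs of a gene that differed became 2 with a floor at the 40th percentile, 1 without the filter, 1 with a filter at the 60th percentile and 1 to 4 with an array left out. What caused these shifts between settings was not tested. With an array left out, the lone pool of a group is assumed to vary like the other group. The labels do not say that replicate numbers pair the pools, and deviations of same-numbered pools correlated at 0.06. With the replicate block 892 probe sets passed, 6 members rose (Ddx27 161131_r_at in addition, adjusted p = 0.0346), 2 fell and 4 pairs differed. Dim signals near the floor limit Eif4e, Eif5a, Eef2k and Eif2ak2, which could not be tested.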
